A study of Mus musculus with 6 samples.

Results

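The genes described here are 10 ligand-activated transcription factors through which liver senses drugs, foreign chemicals, sterols, fatty acids and hormones. They were taken from the deposited gene table by symbol, and each of the 10 symbols matched 1 row of 55573 genes. The sensors of drugs and chemicals among them are Nr1i2 (PXR), Nr1i3 (CAR) and Ahr, the aryl hydrocarbon receptor. Nr1h3 (LXR alpha) binds oxysterols, Pparg and Ppard bind fatty acids, and Rxra, retinoid X receptor alpha, is the dimer partner of many of the rest. The hormone receptors are Nr3c1 for glucocorticoids, Thrb for thyroid hormone and Esr1 for oestrogens. Ahr is a basic helix-loop-helix PAS protein and the other 9 are nuclear receptors. RNA came from liver of mice of generation 3 (G3), in 3 libraries of each genotype. The control, DKO, was mTR-/- Wrn-/-, so it lacked the telomerase RNA gene and the Werner helicase gene. The compared genotype, p21TKO, was p21-/- mTR-/- Wrn-/-, so both genotypes shared the mTR and Wrn deletions and differed in the cell cycle inhibitor gene p21 (Cdkn1a). Both were on normal feed, and the study asked which pathways differ once p21 is lost. The labels have no field for age. Each sample title carries the tag 2M, which the labels do not spell out. Nothing in the labels says whether each library is a different mouse, and a p-value here covers only how the libraries vary.

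Nuclear receptors bind DNA at short hexamers, most of them as dimers, and a ligand swaps bound corepressors for coactivators. PXR, CAR, LXR, the PPARs and the thyroid receptors pair with a retinoid X receptor, the steroid receptors bind as pairs of their own kind, and AHR pairs with ARNT. In liver, PXR, CAR and AHR drive cytochrome P450, conjugation and transport genes, LXR drives lipid synthesis and sterol export, and the glucocorticoid and thyroid hormone receptors set fuel metabolism. Levels of mRNA report neither the ligand nor the activity of a receptor, so the levels of genes that each receptor is known to drive are given beside it.

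Promoter windows from RefSeq (GRCm38.p6, 250 bases before to 50 bases after an annotated start) were found for 8 of the 10 genes, 14 windows in all. They were searched on both strands for AGGTCA and AGTTCA, hexamers bound by nuclear receptors that pair with RXR, and for GCGTG, the core bound by AHR with ARNT. None of these motifs contains another. AGGTCA was in 4 of the 14 windows, AGTTCA in 1 and GCGTG in 4, against 16.3%, 14% and 32.4% of 32851 mouse windows of the same length. The 3 windows below are shown because Nr1i3 and Ugt1a1, a gene that CAR is known to drive, had nearly the same pattern over the libraries, and because Rxra, the common partner, had AGGTCA in 1 of its 2 windows. Motifs are in capitals. The Nr1i3 window (chr1:171213720-171214019, plus strand) held none of the 3 motifs. The Ugt1a1 window (chr1:88211709-88212008, plus strand) held AGTTCA at position -162 from the start. The second Rxra window (chr2:27709042-27709341, plus strand) held AGGTCA at -87 on the minus strand, read as TGACCT, and at -48 on the plus strand. A match is a run of letters and not a measured binding site.
Nr1i3: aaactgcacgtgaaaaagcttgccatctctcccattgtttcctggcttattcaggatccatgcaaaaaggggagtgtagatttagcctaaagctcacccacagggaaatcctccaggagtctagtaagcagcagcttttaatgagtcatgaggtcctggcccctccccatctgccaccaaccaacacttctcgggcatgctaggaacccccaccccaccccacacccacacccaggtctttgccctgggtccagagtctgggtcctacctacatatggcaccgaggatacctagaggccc
Ugt1a1: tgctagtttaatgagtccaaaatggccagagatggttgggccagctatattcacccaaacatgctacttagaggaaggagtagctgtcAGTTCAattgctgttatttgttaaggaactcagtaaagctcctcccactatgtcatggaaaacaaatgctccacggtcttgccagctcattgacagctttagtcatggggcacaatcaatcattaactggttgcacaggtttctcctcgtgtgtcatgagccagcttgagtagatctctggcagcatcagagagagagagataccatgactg
Rxra: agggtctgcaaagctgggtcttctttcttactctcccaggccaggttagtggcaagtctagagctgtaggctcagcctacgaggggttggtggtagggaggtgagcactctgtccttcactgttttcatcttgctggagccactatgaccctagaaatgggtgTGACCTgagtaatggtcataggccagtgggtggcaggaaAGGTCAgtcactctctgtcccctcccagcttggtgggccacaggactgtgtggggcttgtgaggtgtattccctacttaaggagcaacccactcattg

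Expression was deposited as FPKM, fragments scaled by transcript length and by library size, which is per length and so allows levels of different genes to be compared. Behind the values were 19363284 to 27061290 reads per library, with 18271 to 19535 genes above 0. Each of the 9 hepatocyte marker genes found in the table was above 0 in every library. Y-linked transcripts were present in DKO replicates 2 and 3 and in p21TKO replicate 1 and at 0 in the other 3 libraries, so the sexes were unevenly spread over the genotypes. These are called Y-positive and Y-negative libraries below. Cdkn1a stood at 0.76, 1.79 and 0.41 FPKM in DKO and at 1.41, 11.05 and 6.50 FPKM in the libraries labelled p21TKO, so it was not lower there. Which exons were deleted is unknown from the labels, so these values do not check the label. Wrn averaged 0.256 ± 0.0518 FPKM for DKO and 0.239 ± 0.0349 FPKM for p21TKO (SD, n = 3 each), and Terc, the mTR transcript, was at 0 in all 6 libraries. The p21TKO replicates 2 and 3 stood apart from the other 4 libraries. The summed FPKM of 13 acute phase genes was 44500 and 31600 in them against 6050 to 10900 elsewhere, and that of 8 neutrophil markers was 548 and 219 against 10.3 to 28.1. The acute phase sums had different make-ups. In p21TKO replicate 3, Saa1, Saa2 and Saa3 lay within the DKO range (176.44, 85.95 and 3.18 FPKM) and Crp below it (66.94 FPKM). The other listed acute phase genes lay above all DKO libraries there, and Hamp alone gave 11179.41 FPKM of the sum. Kupffer cell markers summed to 171 and 96.9 FPKM against 18.6 to 68.3, and liver endothelial markers to 75.5 and 38.4 against 8.37 to 22. In p21TKO replicate 3 the marker Marco alone gave 45.11 FPKM of the Kupffer sum, and Vsig4, Timd4 and Cd68 also lay above all DKO libraries. Clec4f, Cd5l and Adgre1 lay within the DKO range there, and Csf1r at its upper edge. The part of these differences, and of sex, in the results below was not tested beyond the values given beside each result.

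No receptor gene passed the test between genotypes. Rxra, Nr1h3 and Nr1i2 had the highest mean FPKM. Nr3c1 was lower in each p21TKO library than in each DKO library, and Ahr had the largest difference of the 9 tested genes. Of these 9 (mean FPKM of at least 1), 0 were called (limma on log2(FPKM + 1), Benjamini-Hochberg adjusted p under 0.05, two-sided), where 0.0734% of all 9538 tested genes were called in either direction, 0.0315% higher and 0.0419% lower in p21TKO. At an unadjusted limma p under 0.05 there was 1 of 9 (Ahr), against 9.38% of all tested genes. In p21TKO 8 of the 9 had a lower mean on the log2 scale and 1 a higher one, where 49.8% of all tested genes had a lower one. The median difference of the 9 was -0.21 and that of all tested genes 0.00. Groups did not overlap for 1 of the 9, Nr3c1, against 8.49% of tested genes with p21TKO lower and 15.4% in either direction. In bulk liver, fewer cells of a type and less RNA per cell cannot be told apart.

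**Figure D1:**
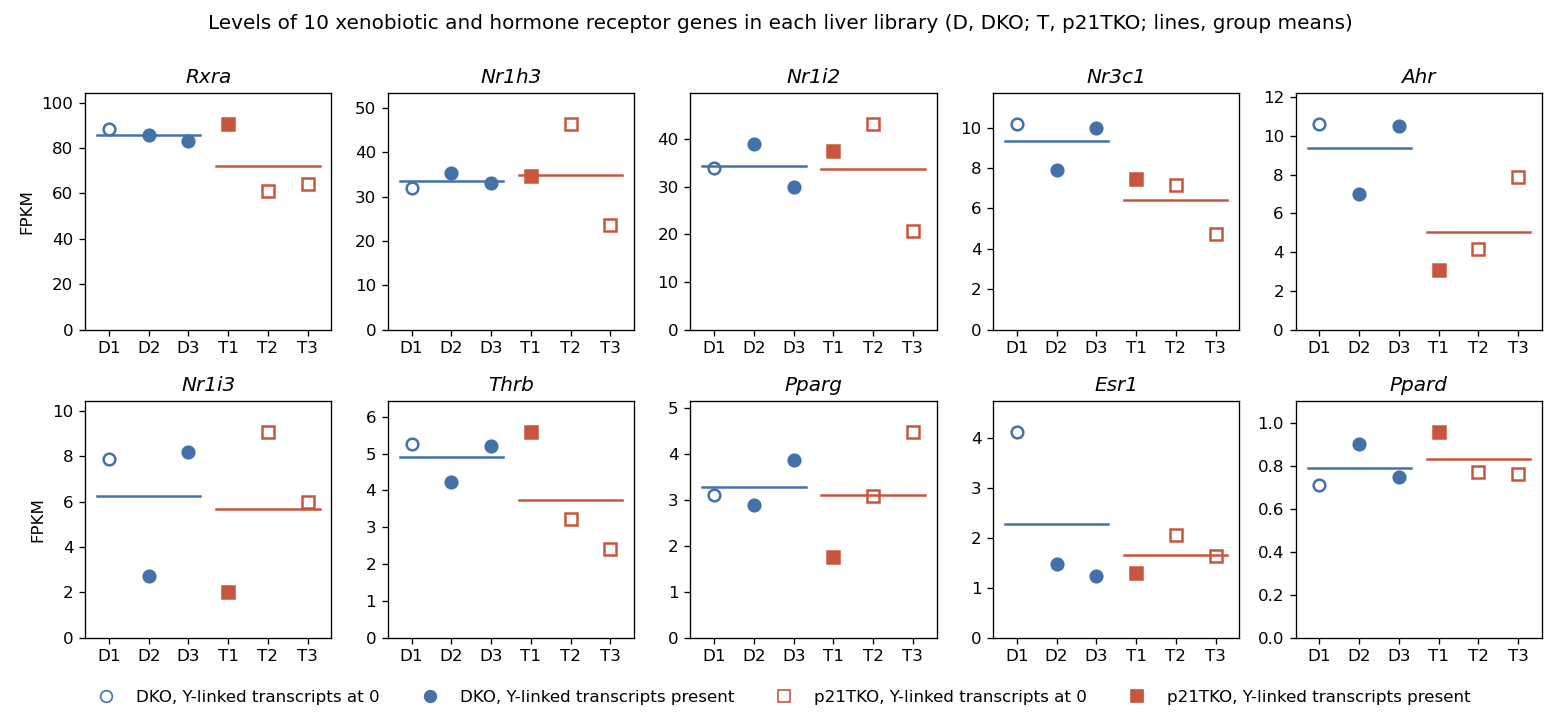
FPKM of the 10 receptor genes in each library, on axes that start at 0, for 3 DKO libraries (D1 to D3, circles) and 3 p21TKO libraries (T1 to T3, squares). Lines are group means and filled symbols mark libraries with Y-linked transcripts. Only for Nr3c1 do all p21TKO values (4.74 to 7.45) lie below all DKO values (7.89 to 10.19).

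The genes fell into tiers of abundance. Rxra stood highest at 60.99 to 90.69 FPKM, above all values of the next gene. Nr1h3 (23.66 to 46.40 FPKM) and Nr1i2 (20.70 to 43.22 FPKM) came next and their ranges overlapped, so they were not separated. These 3 held ranks 2 to 6 among the 49 nuclear receptor genes compared in each library. Below a gap came Nr3c1, Ahr, Nr1i3, Thrb, Pparg and Esr1, in order of their means, and each of them overlapped its neighbour in that order. The place of Nr1i3 is uncertain, because 74.9% of its exonic bases overlap exons of Tomm40l on the opposite strand. How reads there were counted is not stated, so its FPKM may not give its level. Ppard came last, between 0.71 and 0.96 FPKM, and did not overlap Esr1.

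PXR, encoded by Nr1i2 (ENSMUSG00000022809, chromosome 16, 38248323 to 38294824, minus strand, GRCm38), binds drugs, bile acids and steroids. Nr1i2 stood at 33.86, 39.01 and 29.96 FPKM in DKO replicates 1 to 3 and at 37.52, 43.22 and 20.70 FPKM in p21TKO replicates 1 to 3. The highest and the lowest library were both p21TKO, and the groups overlapped. The means were 34.3 ± 4.54 and 33.8 ± 11.7 FPKM (SD, n = 3 each), and the log2 difference was -0.07 (SE 0.31, limma adjusted p = 0.946). The sign turned with single libraries left out (-0.28 to 0.23).

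Of 7 listed PXR target genes, 7 were tested and 0 called, with 3 higher and 4 lower means and a median difference of -0.07. Cyp3a11, the main drug-oxidising P450 under PXR, stood at 341.43, 332.74 and 474.57 FPKM in DKO and at 533.99, 292.16 and 258.79 FPKM in p21TKO. Those groups overlapped, with p21TKO holding the highest library and the lowest ones. Abcc3, an organic anion exporter on the blood side of hepatocytes, stood at 37.90, 36.28 and 32.46 FPKM in DKO and at 29.16, 25.08 and 25.46 FPKM in p21TKO. Each p21TKO value of Abcc3 lay below each DKO value, and the difference of -0.41 (SE 0.19) missed the threshold (limma adjusted p = 0.535). Ces2a, a carboxylesterase, had a difference of -0.87 (SE 0.57, limma adjusted p = 0.610). Abcb1a, the P-glycoprotein drug pump, and Gsta1, a glutathione transferase, were scarce, at 0.42 to 2.87 and 0.26 to 2 FPKM, with log2 differences of 0.13 and 0.14.

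CAR, encoded by Nr1i3 (ENSMUSG00000005677, chromosome 1, 171213970 to 171220701, plus strand), is kept in the cytoplasm until drugs such as phenobarbital release it. Nr1i3 stood at 7.89, 2.73 and 8.19 FPKM in DKO and at 1.99, 9.10 and 5.99 FPKM in p21TKO, from 170 to 922 reads. The low libraries were DKO replicate 2 and p21TKO replicate 1, and the highest was 4.57 times the lowest, so the spread lay within genotypes. The means were 6.27 ± 3.07 and 5.69 ± 3.56 FPKM (SD, n = 3 each), and the log2 difference was -0.18 (SE 0.54, limma adjusted p = 0.920) that ranged from -0.60 to 0.32 with single libraries left out. The Nr1i3 value is uncertain for a further reason. Of its 4414 exonic bases, 3304 (74.9%) overlap exons of Tomm40l on the opposite strand, and without a stated strand setting the reads of both genes cannot be told apart. Tomm40l itself was listed at 0.21 to 1.10 FPKM.

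Ugt1a1, the bilirubin glucuronosyltransferase that CAR is known to drive, stood at 43.34, 10.22 and 42.41 FPKM in DKO and at 8.96, 45.58 and 33.15 FPKM in p21TKO. It was low in DKO replicate 2 and p21TKO replicate 1, the same libraries in which Nr1i3 was low, and it ranked second among the genes most like Nr1i3 over the 6 libraries (Pearson r = 0.992, a description over n = 6 libraries). Ugt1a1 shares exons with the other Ugt1a genes, so its reads may be split among them. Cyp2b10, the P450 most used as a readout of CAR, had another pattern, with 3.31, 0.40 and 0.11 FPKM in DKO and 0.17, 4.15 and 7.40 FPKM in p21TKO. Its high libraries were the 3 Y-negative ones. Cyp2c55, an inducible P450, was highest in DKO replicate 3 (3.09 FPKM) and lowest in DKO replicate 2 (0.07 FPKM), so these 3 CAR targets did not share 1 pattern.

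**Figure D2:**
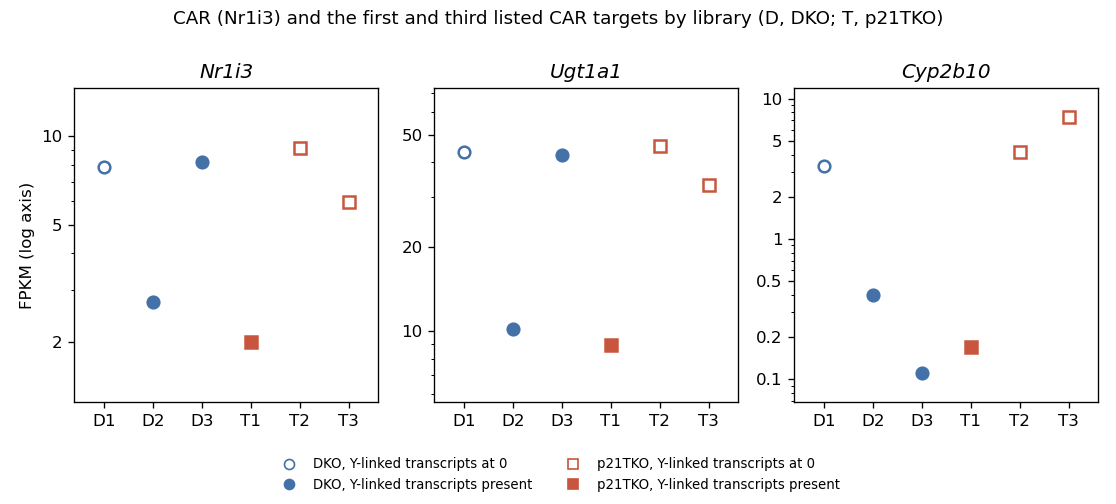
FPKM on log axes of Nr1i3, Ugt1a1 and Cyp2b10 in each library (D, DKO; T, p21TKO; filled symbols, libraries with Y-linked transcripts). Nr1i3 and Ugt1a1 are low in D2 and T1 (2.73 and 1.99, 10.22 and 8.96 FPKM), whereas Cyp2b10 is low in D2, D3 and T1.

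Of 9 listed CAR targets, 8 were tested and 0 called, with 4 higher and 4 lower means and a median of 0.41. Gadd45b, a stress gene that CAR is known to induce, stood at 0.65, 1.29 and 1.22 FPKM in DKO and at 1.53, 8.42 and 11.12 FPKM in p21TKO. Each p21TKO value was above each DKO value and the difference was 1.70 (SE 0.57, limma adjusted p = 0.523). Without p21TKO replicate 1 it passed (2.39, limma adjusted p = 0.00653). That setting leaves 2 Y-negative p21TKO libraries with high acute phase and neutrophil sums against a mixed DKO group, and 5.28% of 9579 genes were then called, 2.43% higher and 2.85% lower. Cyp2a5, a coumarin hydroxylase, stood at 1189.74, 1072.27 and 1159.40 FPKM in DKO and at 738.76, 421.58 and 284.52 FPKM in p21TKO. All p21TKO values of Cyp2a5 were lower, with a difference of -1.35 (SE 0.41, limma adjusted p = 0.523), which passed without p21TKO replicate 1 (-1.72, limma adjusted p = 0.033). Between genotypes it was -1.78 among Y-negative libraries and -0.59 among Y-positive ones.

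AHR, encoded by Ahr (ENSMUSG00000019256, chromosome 12, 35497974 to 35535038, minus strand), binds planar aromatic compounds and tryptophan products. Ahr stood at 10.62, 6.98 and 10.48 FPKM in DKO and at 3.07, 4.17 and 7.88 FPKM in p21TKO. The lowest libraries were p21TKO replicates 1 and 2, but p21TKO replicate 3 lay above DKO replicate 2, so the groups overlapped. The means were 9.36 ± 2.07 and 5.04 ± 2.52 FPKM (SD, n = 3 each). The log2 difference was -0.84 (SE 0.32, unadjusted p = 0.0366, limma adjusted p = 0.523), and it stayed between -1.15 and -0.59 with single libraries left out. The lincRNA Gm48236 on the opposite strand overlaps 127 (2.1%) of the exonic bases of Ahr. Ahr was lower in p21TKO both among Y-negative libraries (-0.78) and among Y-positive ones (-1.23).

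AHR target genes did not share the pattern of Ahr. Cyp1a2, an abundant P450 of hepatocytes, stood at 321.52, 432.06 and 384.55 FPKM in DKO and at 377.34, 73.58 and 82.24 FPKM in p21TKO. It was low in p21TKO replicates 2 and 3 and at the DKO level in p21TKO replicate 1, where Ahr was lowest. Its difference of -1.51 (SE 0.64, limma adjusted p = 0.523) passed without p21TKO replicate 1 (-2.26, limma adjusted p = 0.0129). Cyp1a1, the P450 most strongly induced by AHR ligands, was between 0.33 and 0.74 FPKM in 5 libraries and at 4.22 FPKM in p21TKO replicate 3. Tiparp, an AHR-induced inhibitor of AHR, had a difference of -0.05 (SE 0.20). Ugt1a6a, a phenol glucuronosyltransferase that shares exons with other Ugt1a genes, was lower in each p21TKO library (0.35 to 0.75 FPKM) than in each DKO library (1.07 to 1.72 FPKM). Its difference was -0.60 (SE 0.18, limma adjusted p = 0.523). Nqo1, a quinone reductase, stood at 9.46, 4.76 and 3.97 FPKM in DKO and at 1.96, 13.10 and 10.99 FPKM in p21TKO, with the 3 Y-negative libraries above the 3 Y-positive ones. Of 8 listed AHR targets, 5 were tested and 0 called, with 2 higher and 3 lower means and a median of -0.05.

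Proteins that hold AHR and the steroid receptors ready for ligand were described from a list of 12 partner and chaperone genes. Of these, 9 were tested and 0 called, with 7 higher and 2 lower means and a median of 0.24. Groups overlapped for each of the 9 tested genes, where 15.4% of all tested genes had groups that did not overlap. Stip1, the co-chaperone that links HSP70 to HSP90, stood at 23.51, 29.17 and 24.12 FPKM in DKO and at 51.55, 38.50 and 28.75 FPKM in p21TKO. Only p21TKO replicate 3 lay within the DKO range, and the difference of 0.58 (SE 0.27) did not pass (limma adjusted p = 0.531). Ppp5c, a phosphatase of HSP90 complexes, had a difference of 0.24 (SE 0.21).

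Rxra (ENSMUSG00000015846, chromosome 2, 27676440 to 27762957, plus strand) stood at 88.45, 85.50 and 82.90 FPKM in DKO and at 90.69, 60.99 and 64.01 FPKM in p21TKO. The 3 DKO libraries lay close together, p21TKO replicate 1 was the highest of all, and p21TKO replicates 2 and 3 were the lowest. The means were 85.6 ± 2.78 and 71.9 ± 16.3 FPKM (SD, n = 3 each), and the log2 difference was -0.27 (SE 0.25, limma adjusted p = 0.710). Among Y-negative libraries the difference was -0.49 and among Y-positive ones 0.11. The other retinoid X receptors were scarcer, Rxrb at 6.46 to 8.94 FPKM and Rxrg at 0.97 to 2.39 FPKM, named here after their values were seen because they can stand in for Rxra as partners.

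LXR alpha, encoded by Nr1h3 (ENSMUSG00000002108, chromosome 2, 91184061 to 91202834, minus strand), stood at 31.91, 35.37 and 33.15 FPKM in DKO and at 34.64, 46.40 and 23.66 FPKM in p21TKO. The highest and the lowest library were p21TKO replicates 2 and 3, on both sides of a narrow DKO range. The means were 33.5 ± 1.75 and 34.9 ± 11.4 FPKM (SD, n = 3 each), and the log2 difference was 0.01 (SE 0.28, limma adjusted p = 0.994). It turned sign with the scaling: it was -0.12 with mitochondrially encoded genes left out of the total.

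Of 11 listed LXR targets, 10 were tested and 0 called, with 2 higher and 8 lower means and a median of -0.46. Abcg5 and Abcg8 encode the subunits of the transporter that moves sterols into bile, and both were lower in each p21TKO library. They were the only 2 of the 10 without overlap, against 8.49% of all tested genes with p21TKO lower and 15.4% in either direction. Abcg5 stood at 56.03, 36.16 and 31.41 FPKM in DKO and at 29.12, 23.26 and 25.23 FPKM in p21TKO, a difference of -0.61 (SE 0.27, limma adjusted p = 0.527). Abcg8 stood at 42.04, 23.75 and 23.94 FPKM in DKO and at 17.58, 18.45 and 17.66 FPKM in p21TKO, a difference of -0.66 (SE 0.27, limma adjusted p = 0.523). DKO replicate 1 was the highest library for both. Abca1, the cholesterol efflux pump that LXR also drives, did not follow them, at 11.62 to 16.39 FPKM in DKO and, in p21TKO, 10.93 to 15.48 FPKM.

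Among the lipid synthesis targets of LXR, Srebf1, the gene of the transcription factor SREBP-1, stood at 30.10, 33.09 and 41.36 FPKM in DKO and at 35.24, 23.74 and 8.98 FPKM in p21TKO. Scd1, the stearoyl-CoA desaturase, stood at 697.20, 1125.79 and 714.06 FPKM in DKO and at 814.57, 60.15 and 67.09 FPKM in p21TKO. Both genes were low in p21TKO replicates 2 and 3 and within the DKO range in p21TKO replicate 1. The Scd1 difference of -2.46 (SE 0.99, limma adjusted p = 0.523) passed without p21TKO replicate 1 (-3.68, limma adjusted p = 0.00621). Mylip, a ligase that degrades the LDL receptor and is named because it then passed too, was at 1.71 to 2.11 FPKM in DKO and at 0.83, 6.41 and 5.11 FPKM in p21TKO. Its difference was 0.61 with all libraries and 1.23 without p21TKO replicate 1 (limma adjusted p = 0.679 and 0.0166).

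The glucocorticoid receptor gene Nr3c1 (ENSMUSG00000024431, chromosome 18, 39410545 to 39519421, minus strand) stood at 10.19, 7.89 and 9.98 FPKM in DKO and at 7.45, 7.14 and 4.74 FPKM in p21TKO. Each p21TKO library lay below each DKO library, with p21TKO replicate 3 the lowest, and reads ranged from 986 to 1881. The means were 9.35 ± 1.27 and 6.44 ± 1.48 FPKM (SD, n = 3 each). The log2 difference was -0.49 (SE 0.21, unadjusted p = 0.056, limma adjusted p = 0.523), between -0.60 and -0.31 with single libraries left out. It was -0.71 among Y-negative libraries and -0.22 among Y-positive ones. Because the groups did not overlap, any such split gives a negative difference, so the shared sign adds nothing. DKO replicate 1 was the only DKO library on the Y-negative side, and p21TKO replicate 1 the only p21TKO library on the Y-positive side.

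Genes that glucocorticoids induce in liver did not share the direction of Nr3c1 as a list. Of 13 listed targets, 13 were tested and 0 called, with 8 higher and 5 lower means and a median of 0.36. For 3 of them p21TKO was higher without overlap, where 6.93% of tested genes were, and for 0 of them lower. Tat, tyrosine aminotransferase, stood at 735.00, 904.56 and 832.42 FPKM in DKO and at 1260.44, 1260.08 and 1055.86 FPKM in p21TKO. All p21TKO libraries of Tat were higher, including Y-positive replicate 1, and the difference was 0.53 (SE 0.28, limma adjusted p = 0.568). Zbtb16, a zinc finger gene, stood at 2.11, 0.76 and 0.48 FPKM in DKO and at 2.12, 6.36 and 3.86 FPKM in p21TKO. Its lowest p21TKO library and highest DKO library were almost equal, and the difference was 1.26 (SE 0.39, limma adjusted p = 0.523). Sgk1, a kinase of salt and stress responses, was the third, at 2.36 to 4.73 FPKM in DKO and, in p21TKO, 4.95 to 6.24 FPKM (0.53, SE 0.23, limma adjusted p = 0.523). The 5 targets with lower means, added after their values were seen, all had overlapping groups. They were G6pc (-1.75, SE 1.13), Dusp1 (-0.70), Tsc22d3 (-0.59), Pck1 (-0.38) and Klf9 (-0.28).

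Fkbp5, which encodes an HSP90 co-chaperone that restrains the receptor and is induced by it, stood at 12.29, 6.61 and 3.70 FPKM in DKO and at 8.49, 23.33 and 23.15 FPKM in p21TKO. The p21TKO replicates 2 and 3 were the highest libraries, replicate 1 lay within the DKO range, and the difference was 1.18 (SE 0.51, limma adjusted p = 0.523). Per1, a clock gene with a glucocorticoid response, had a difference of 0.36 (SE 0.21, limma adjusted p = 0.581). Serpina6, which encodes the blood carrier of corticosteroids, stood at 291.36, 243.72 and 166.68 FPKM in DKO and at 131.15, 6.88 and 2.29 FPKM in p21TKO. Every p21TKO value was below every DKO value, and replicates 2 and 3 were far below all others. The difference of -3.93 (SE 1.27, limma adjusted p = 0.523) passed without p21TKO replicate 1 (-5.49, limma adjusted p = 0.00463), and it was -5.84 among Y-negative and -0.62 among Y-positive libraries. Hsd11b1, the enzyme that regenerates active glucocorticoid, was added after its values were seen, at 133.04, 132.37 and 118.47 FPKM in DKO and at 132.04, 95.94 and 52.38 FPKM in p21TKO.

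Thyroid hormone receptor beta is the main thyroid receptor of hepatocytes. Its gene Thrb (ENSMUSG00000021779, chromosome 14, 17660261 to 18038090, plus strand) stood at 5.27, 4.24 and 5.21 FPKM in DKO and at 5.6, 3.22 and 2.41 FPKM in p21TKO. The p21TKO replicates 2 and 3 were the lowest libraries and replicate 1 the highest, so the groups overlapped. The means were 4.91 ± 0.58 and 3.74 ± 1.66 FPKM (SD, n = 3 each), with a difference of -0.37 (SE 0.26, limma adjusted p = 0.629). Without p21TKO replicate 1 it was -0.63 (limma adjusted p = 0.097), the lowest adjusted p among the 9 tested receptor genes in that setting, and it did not pass. Among Y-negative libraries the difference was -0.73 and among Y-positive ones 0.21.

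Most genes under thyroid hormone had lower means in p21TKO. Of 7 listed, 6 were tested and 0 called, with 1 higher and 5 lower means and a median of -0.77, and 2 were lower in p21TKO without overlap, against 8.49% of all tested genes. Dio1, the deiodinase that makes active hormone and a classical target of the receptor, stood at 120.10, 101.51 and 97.37 FPKM in DKO and at 90.99, 10.64 and 2.19 FPKM in p21TKO. Its p21TKO replicates 2 and 3 were far below the rest while replicate 1 lay just below DKO. The difference of -2.83 (SE 1.11, limma adjusted p = 0.523) passed without p21TKO replicate 1 (-4.13, limma adjusted p = 0.0152), and it was -4.31 among Y-negative and -0.13 among Y-positive libraries.

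Thrsp, a lipogenic gene named for its thyroid hormone response, stood at 404.90, 590.97 and 207.08 FPKM in DKO and at 599.68, 97.40 and 17.61 FPKM in p21TKO. Me1, malic enzyme, stood at 32.84, 42.65 and 43.68 FPKM in DKO and at 49.05, 22.57 and 11.74 FPKM in p21TKO. Both had p21TKO replicate 1 as the highest library and p21TKO replicates 2 and 3 as the lowest, as Thrb did. Gpd2, the mitochondrial glycerol phosphate dehydrogenase, was lower in each p21TKO library (1.70 to 4.29 FPKM against 4.94 to 6.41 FPKM). Its difference was -0.84 (SE 0.26, limma adjusted p = 0.523) and passed without p21TKO replicate 1 (-1.09, limma adjusted p = 0.033). Bcl3, a nuclear IkB family gene also driven by inflammatory signals, was the gene with a higher mean (0.54, SE 0.40, limma adjusted p = 0.647). In the 2 libraries where these genes were low, acute phase and neutrophil sums were high, and the part of that in these values was not tested.

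**Figure D3:**
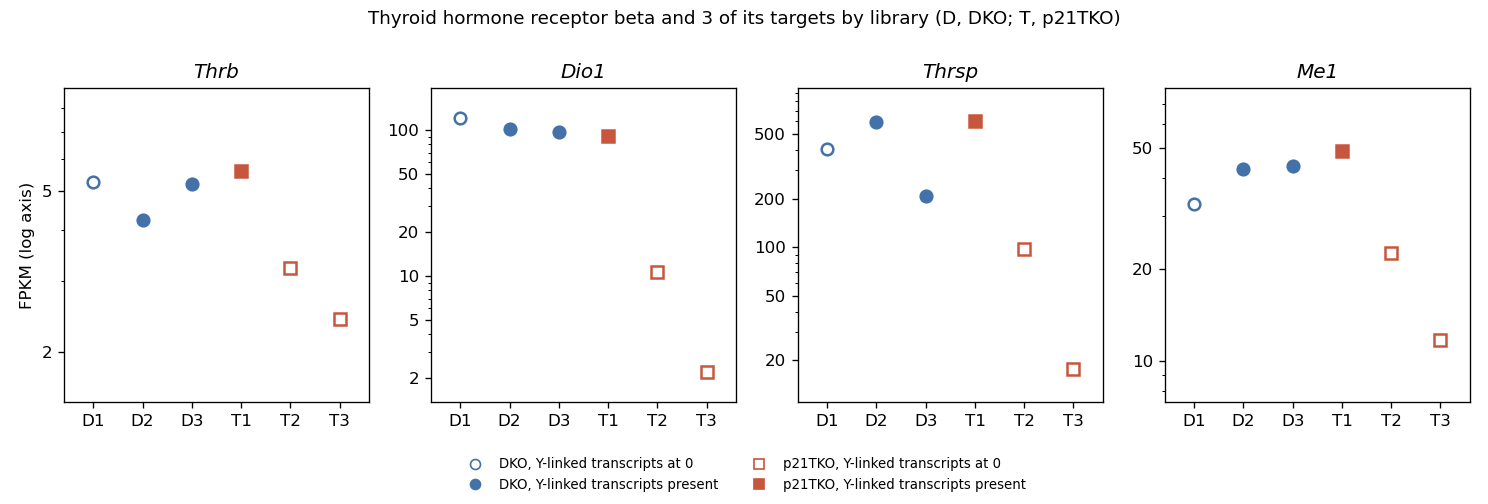
FPKM on log axes of Thrb and its targets Dio1, Thrsp and Me1 in each library (D, DKO; T, p21TKO; filled symbols, libraries with Y-linked transcripts). In all 4 panels T2 and T3 are the lowest libraries, and T1 lies near or above the DKO libraries.

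PPAR gamma, encoded by Pparg (ENSMUSG00000000440, chromosome 6, 115360951 to 115490399, plus strand), drives fat storage in adipocytes and is scarce in healthy hepatocytes. Pparg stood at 3.11, 2.88 and 3.86 FPKM in DKO and at 1.75, 3.08 and 4.49 FPKM in p21TKO. The lowest and the highest library were both p21TKO, and the groups overlapped. The means were 3.28 ± 0.509 and 3.11 ± 1.37 FPKM (SD, n = 3 each), with a difference of -0.11 (SE 0.27, limma adjusted p = 0.895). Of 8 listed PPAR gamma targets, 5 were tested and 0 called, with 3 higher and 2 lower means and a median of 0.41.

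Fabp4, a fatty acid carrier of adipocytes, macrophages and endothelium, stood at 1.02, 1.51 and 0.98 FPKM in DKO and at 1.07, 4.76 and 4.49 FPKM in p21TKO. Cd36, a fatty acid uptake receptor of hepatocytes, macrophages and endothelium, stood at 4.65, 3.62 and 3.75 FPKM in DKO and at 1.55, 22.28 and 15.13 FPKM in p21TKO. Both were high in p21TKO replicates 2 and 3, the libraries with the highest Kupffer and endothelial sums. In replicate 3, Marco made up 45.11 of the 96.9 FPKM of the Kupffer sum. The part of those cells in Fabp4 and Cd36 was not tested. Both passed without p21TKO replicate 1, Fabp4 with 1.38 and Cd36 with 1.96 (limma adjusted p = 0.0138 and 0.0113), and not with it (0.90 and 0.98, limma adjusted p = 0.531 and 0.665). Of the 5 adipocyte markers other than Fabp4, Lep and Retn were at 0 in all libraries. Their sum was 0 to 0.262 FPKM in DKO and 0.347, 0 and 0.107 FPKM in p21TKO replicates 1 to 3. None of these markers had more than 6 reads in a library, too few to compare libraries, and the source of Fabp4 was not tested. Cidec and Plin2, lipid droplet proteins, had differences of -0.19 (SE 0.21) and -0.50 (SE 0.30), and Plin4 had 0.41 (SE 0.30).

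Ppard (ENSMUSG00000002250, chromosome 17, 28232700 to 28301474, plus strand) encodes PPAR delta, a fatty acid sensor of many tissues. It stood at 0.71, 0.90 and 0.75 FPKM in DKO and at 0.96, 0.77 and 0.76 FPKM in p21TKO, from 126 to 154 reads. These values were below the minimum mean of 1 FPKM for the test across genes and they overlapped. The means were 0.789 ± 0.0958 and 0.83 ± 0.115 FPKM (SD, n = 3 each), and the log2 difference of 0.03 gave a two-sided exact permutation p of 0.5, where 0.1 is the smallest p that 3 against 3 libraries allow. Its shared targets with PPAR alpha, 9 listed and 9 tested, had 2 higher and 7 lower means, a median of -0.46 and 0 calls.

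Cpt1a, the gate of fatty acid entry into mitochondria, stood at 61.21, 45.05 and 64.06 FPKM in DKO and at 36.30, 26.71 and 29.65 FPKM in p21TKO. All p21TKO values were lower, also in Y-positive replicate 1, and the difference was -0.85 (SE 0.24, unadjusted p = 0.0107, limma adjusted p = 0.523). Acot1, an acyl-CoA thioesterase, had -0.73 (SE 0.29, limma adjusted p = 0.523) with overlapping groups. Angptl4, a lipase inhibitor, was at 47.64 to 58.68 FPKM in DKO and at 51.64, 17.19 and 35.95 FPKM in p21TKO. Pdk4, the kinase that spares glucose in fasting, had 0.62 (SE 0.35, limma adjusted p = 0.576) and passed without p21TKO replicate 1 (1.02, limma adjusted p = 0.0266), against the direction of Cpt1a. Ppara, the main PPAR of hepatocytes, stood at 25.53, 9.72 and 30.99 FPKM in DKO and at 9.25, 13.08 and 9.04 FPKM in p21TKO. DKO replicate 2 lay with the p21TKO libraries, and the Ppara difference of -0.88 (SE 0.43) did not pass (limma adjusted p = 0.536).

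Oestrogen receptor alpha, encoded by Esr1 (ENSMUSG00000019768, chromosome 10, 4611593 to 5005614, plus strand), is the oestrogen receptor of hepatocytes. Esr1 stood at 4.13, 1.47 and 1.23 FPKM in DKO and at 1.30, 2.06 and 1.63 FPKM in p21TKO. DKO replicate 1, the Y-negative DKO library, was the highest, and the 3 Y-negative libraries were above the 3 Y-positive ones. The means were 2.28 ± 1.61 and 1.66 ± 0.381 FPKM (SD, n = 3 each), with a difference of -0.21 (SE 0.33, limma adjusted p = 0.836). It was -0.86 among Y-negative and -0.03 among Y-positive libraries, and it reached 0.17 without DKO replicate 1. Of 6 listed oestrogen responsive genes 2 were tested, Igf1 and Cish, and 0 were called. Igf1, the liver growth factor, was at 53.90 to 82.92 FPKM in DKO and at 100.70, 31.99 and 25.13 FPKM in p21TKO, a difference of -0.71 (SE 0.53, limma adjusted p = 0.650). Cish, a feedback inhibitor of growth hormone signalling, had -0.44 (SE 0.69). Tff1 stayed at or under 0.18 FPKM and Pgr at or under 0.02 FPKM in each library.

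Sult1e1, which encodes the sulfotransferase that inactivates oestrogens, was added after its values were seen. It stood at 0.34, 0.07 and 0.11 FPKM in DKO and at 0.04, 52.89 and 173.61 FPKM in p21TKO. Only p21TKO replicates 2 and 3 were above 1 FPKM. The difference was 4.2 with all libraries (limma adjusted p = 0.523). Without p21TKO replicate 1 only Y-negative p21TKO libraries remain, and 5.28% of all genes tested were then called. The Sult1e1 difference passed in that setting (6.38, limma adjusted p = 0.00387). Rdh16, a retinol and steroid dehydrogenase, was lower in each p21TKO library (7.77, 3.80 and 1.02 FPKM) than in each DKO library (18.76, 10.51 and 13.48 FPKM), with a difference of -1.76 (SE 0.52, limma adjusted p = 0.523) that also passed without that replicate (-2.26, limma adjusted p = 0.0358). Of the 15 listed enzymes, carriers and binding proteins of hormone ligands, 12 were tested and 0 called, with 3 higher and 9 lower means and a median of -0.63.

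**Figure D4:**
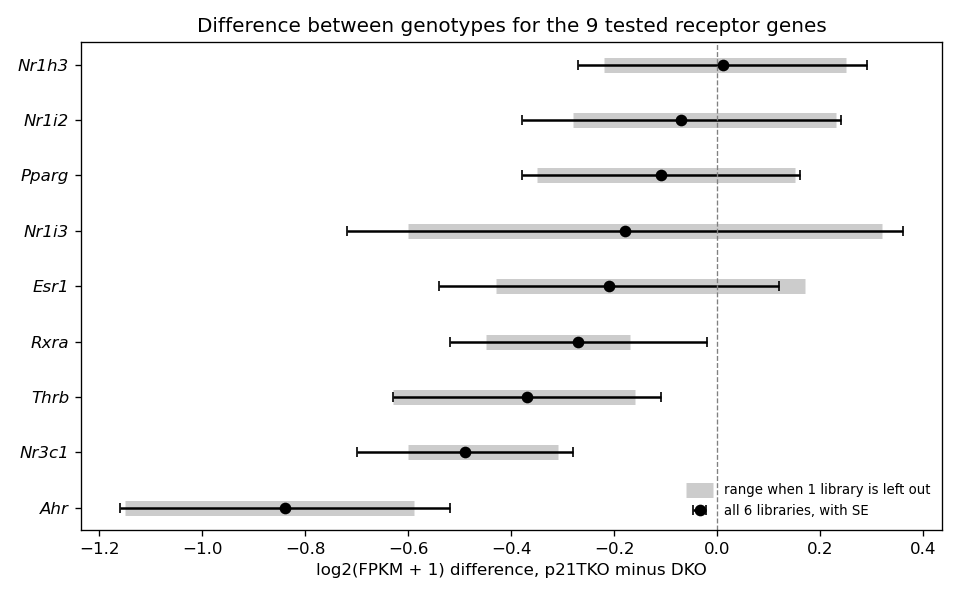
Difference in log2(FPKM + 1), p21TKO minus DKO, of the 9 tested receptor genes, with points for all 6 libraries, bars for the SE and grey bands for the range when 1 library is left out. Ahr (-0.84), Nr3c1 (-0.49), Thrb (-0.37) and Rxra (-0.27) keep a negative sign over the whole band, and the bands of the other 5 genes cross 0.

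The 40 other nuclear receptor genes showed the setting in which these receptors were expressed. Of these, 21 were tested and 0 called, with 7 higher and 14 lower means and a median of -0.15, 19 had a mean under 1 FPKM, and 4 (Rorb, Nr2e1, Nr5a1 and Nr0b1) were at 0 in all libraries. The most abundant was Hnf4a, the receptor that maintains hepatocyte identity, with 134 ± 14.8 FPKM in DKO and 157 ± 6.55 FPKM in p21TKO (SD, n = 3 each). Each p21TKO value of Hnf4a was above each DKO value, the reverse of Nr3c1, with a difference of 0.23 (SE 0.24, limma adjusted p = 0.731). Nr1h4, the bile acid receptor FXR, stood at 55.0 ± 3.45 and 43.7 ± 6.64 FPKM (SD, n = 3 each), lower in each p21TKO library (-0.33, SE 0.22, limma adjusted p = 0.611). Nr0b2 (SHP), a repressor that FXR induces, ranged from 11.21 to 86.92 FPKM within DKO alone.

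Lower in each p21TKO library were also Nr3c2, the mineralocorticoid receptor and nearest relative of Nr3c1 (-0.51, SE 0.16, unadjusted p = 0.016), and Nr2f2 (COUP-TFII) (-0.47, SE 0.15, unadjusted p = 0.0175). Rarg, a retinoic acid receptor, was higher in each (0.60, SE 0.23, unadjusted p = 0.0352). None of these 3 passed (limma adjusted p = 0.523 each). Nr1d2, added after its values were seen, was also lower in each p21TKO library (-0.88, SE 0.39, limma adjusted p = 0.527). Of the 21 tested, groups did not overlap for 2 with p21TKO higher and for 4 with p21TKO lower, against 6.93% and 8.49% of all tested genes. Nr1d1 (REV-ERB alpha), added after its values were seen, was at 8.21 to 10.98 FPKM in DKO and at 10.36, 3.99 and 3.28 FPKM in p21TKO, and it passed without p21TKO replicate 1 (-1.13, limma adjusted p = 0.0322) but not with it (-0.70, limma adjusted p = 0.569).

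Coactivators and corepressors are the proteins through which receptors raise or lower transcription. Of 17 listed, 15 were tested and 0 called, with 5 higher and 10 lower means and a median of -0.05. Med1, the Mediator subunit that contacts nuclear receptors, stood at 2.49, 2.15 and 2.44 FPKM in DKO and at 1.53, 1.58 and 1.6 FPKM in p21TKO. The 3 p21TKO libraries lay close together and below all DKO libraries, in Y-positive replicate 1 as in the others, and the difference was -0.38 (SE 0.13, unadjusted p = 0.0222, limma adjusted p = 0.523). Ncoa2, a coactivator of steroid receptors, was also lower without overlap (-0.27, SE 0.15, limma adjusted p = 0.580), and Ncor1, a corepressor, overlapped (-0.17, SE 0.16). Med1 and Ncoa2 were the only 2 of the 15 without overlap, against 8.49% of all tested genes with p21TKO lower and 15.4% in either direction.

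**Figure D5:**
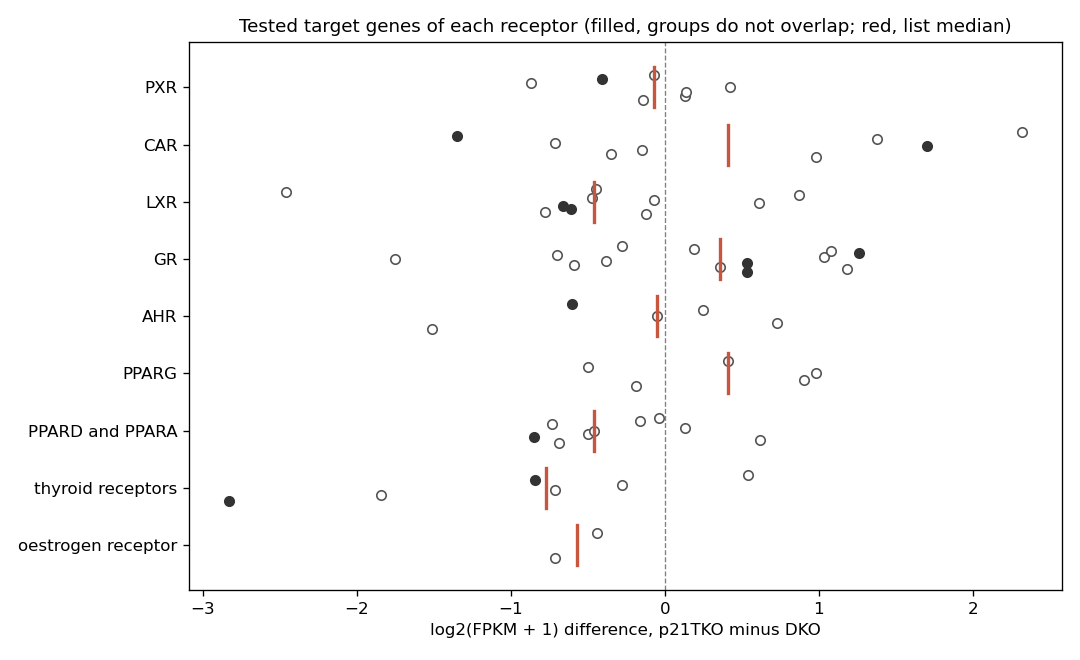
Difference in log2(FPKM + 1), p21TKO minus DKO, of each tested target gene by receptor, with filled points where the groups do not overlap and red bars at the list medians. The thyroid receptor list has its median at -0.77, the GR list at 0.36 and the CAR and PPARG lists at 0.41 each. No gene in any list passed the test.

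Over all the family, partner, ligand and target lists, 118 of 156 genes were tested and 0 were called with all 6 libraries. At an unadjusted limma p under 0.05 there were 17 of 118, against 9.38% of all tested genes. Groups did not overlap for 6 of 118 with p21TKO higher, against 6.93% of all tested genes, and for 16 of 118 with p21TKO lower, against 8.49%. Without p21TKO replicate 1, 15 of 117 tested genes were called, 6 higher and 9 lower, against 5.28% of all genes tested in that setting, and those of them that are named above have both values there. None of the receptor genes was among them. The adjusted limma p of Nr3c1 was then 0.177, that of Rxra 0.269 and that of Ahr 0.282.

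The genes most like each of the 9 tested receptors over the 6 libraries were found among 8542 tested genes by Pearson r of log2(FPKM + 1). The 6 points share depth and the uneven spread of sex, so r is given as a description. Nr3c1 was most like Slc26a1, a sulfate transporter gene (r = 0.999), and Cyb5b, a cytochrome b5 gene of the outer mitochondrial membrane (r = 0.998). Thrb was most like Hadhb, a subunit of the mitochondrial trifunctional protein of fatty acid oxidation (r = 0.996), and Umad1 (r = 0.994). Hadhb stood at 20.36, 18.19 and 20.33 FPKM in DKO and at 20.65, 15.48 and 14.04 FPKM in p21TKO, highest in p21TKO replicate 1 and lowest in replicates 2 and 3.

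Esr1 was most like Cyp2b13 and Sult3a2 (r = 0.986 for each). Cyp2b13, a P450 known to be expressed mainly in female mouse liver, stood at 67.97, 0.02 and 0.00 FPKM in DKO and at 0.00, 6.41 and 0.91 FPKM in p21TKO, so like Esr1 it was highest in DKO replicate 1 and lowest in the Y-positive libraries. Nr1i3 was most like Ppm1f, a phosphatase gene (r = 0.994), before Ugt1a1. For Rxra the genes were Chmp1b (r = 0.995) and Zcchc14 (r = 0.989), for Nr1h3 Gltpd2 (r = 0.989) and Sgpl1 (r = 0.988), and for Nr1i2 Rnf2 (r = 0.989) and Rubcn (r = 0.982). For Ahr they were Leng8 (r = 0.987) and Atpaf1 (r = 0.984), and for Pparg Vps39 (r = 0.998) and Hipk3 (r = 0.988).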

How the data were processed

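PolyA RNA of mouse liver was sequenced in 6 libraries, 3 per genotype. Isolation used TRIzol and library preparation a NEBNext Ultra kit, per the labels' protocols. The authors deposited 1 FPKM value per gene and library, and the submitters' processing notes name HISAT2 2.0.5, featureCounts 1.5.0-p3, CASAVA 1.8, DESeq2 1.20.0 and fastp. The strand setting was not given in the sources used here. These notes list human builds while the identifiers are those of mouse genes, and the build used remains unsettled. Positions come from GENCODE M21 (GRCm38) by identifier, for 55480 of 55573 genes.

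FPKM are not counts. Multiplied by union exon length they gave whole reads (within 0.02) in all libraries for 99.7% of genes, which set the read numbers given and an alternative test. The main test was limma 3.58.1 (trend, R 4.3.3) on log2(FPKM + 1) for the 9538 genes whose mean FPKM reached 1, adjusted over all of them by Benjamini-Hochberg and called under 0.05. Differences are p21TKO minus DKO on this scale, which understates those of low genes. The fit was tested on simulated data. No batch is labelled. Differences were also computed within Y-negative and Y-positive libraries.

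The 10 genes and the lists of relatives, partners, hormone-handling, target and marker genes were chosen with earlier results of these data known. Named genes are the 10 receptors, the targeted genes, per target list the first 3 genes and up to 2 others with the smallest p, of other receptors the 5 with the highest mean and 3 with the smallest p, up to 3 per partner and ligand list, and 2 most like each of the 9 tested receptors by Pearson r. Others are marked. Some genes that the rule or the lists take are counted but not reported here by name. Alternatives were another pseudocount, filter, scaling or variance model, a replicate block, a sex term, limma voom on recovered reads and leaving out each library. Python 3.11.15, pandas 2.3.3, numpy 2.4.6 and matplotlib 3.10.9 were used.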

Additional observations from a re-analysis of the deposited data

Results flagged for a closer look

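For 2 receptor genes the genotypes differed in opposite directions in the Y-negative and the Y-positive libraries. The log2 difference of Rxra, p21TKO minus DKO, was -0.49 in libraries without Y-linked transcripts, where both p21TKO libraries were below the DKO library, and 0.11 in those with them, where the p21TKO library was above both DKO libraries. For Thrb it was -0.73 without and 0.21 with Y-linked transcripts. Each side rests on 1 library of one genotype and 2 of the other, and the difference between the sides was not tested.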

How the results depend on the processing

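None of the 9 tested receptor genes was called under any alternative run. The number of genes called among all tested, 7, was 1 with no filter on low values, 4 at a mean FPKM of at least 5, 12 with mitochondrially encoded genes left out of the total, 2 with limma voom on recovered reads, and between 1 and 506 with single libraries left out. The genes called from the family, partner, ligand and target lists, 0, ranged from 0 to 15 with single libraries left out, 15 without p21TKO replicate 1. With the replicate number as a block, 0 genes were called. The numbers do not pair the libraries: deviations of same-numbered libraries from their group means correlated across genes at -0.44, -0.49 and -0.07, and no library was most like its own number.

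Among other settings, the sign turned for Nr1h3 with mitochondrially encoded genes left out (-0.12) and with voom (-0.02), and with a sex term for Cyp3a11 (0.06), Abcb1a (-0.25) and Nqo1 (-0.27). The cause was not tested. Single libraries left out turned the sign within these ranges: Nr1i2 -0.28 to 0.23, Nr1i3 -0.60 to 0.32, Nr1h3 -0.22 to 0.25, Pparg -0.35 to 0.15, Esr1 -0.43 to 0.17, Cyp3a11 -0.46 to 0.06, Abcb1a -0.17 to 0.56, Gsta1 -0.19 to 0.45, Ugt1a1 -0.80 to 0.52, Abca1 -0.28 to 0.01, Tiparp -0.17 to 0.11, Nqo1 -0.17 to 0.96, Cish -1.28 to 0.09 and Nr0b2 -0.43 to 1. Rxra, Nr3c1, Ahr and Thrb kept their sign in each alternative run. The adjusted limma p of Ahr ranged from 0.282 to 0.891 over the alternatives and that of Nr3c1 from 0.177 to 0.935. The Ppard difference was 0.06 with a pseudocount of 0.1. The lowest read numbers in a library were 100 for Pparg and 126 for Ppard.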
